A study of Homo sapiens with 28 samples.

Results

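Long noncoding RNA (lncRNA) genes whose transcripts are known to stay partly or wholly in the nucleus were followed through 14 lists of N6-methyladenosine (m6A) peaks. The 7 genes, of 62663 genes that GENCODE release 44 places on chromosomes 1 to 22, X and Y, were MALAT1, NEAT1, KCNQ1OT1, H19, TUG1, NORAD and OIP5-AS1, chosen by name and not by any measured value. Peaks were assigned to a gene when their summit, the highest point of the peak, lay between 1000 bases upstream of the gene start and the gene end. Sense peaks are on the strand of the gene and antisense peaks on the other strand. The 7 genes held 431 sense and 49 antisense summits out of 496678 summits in all lists.

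The assay was methylated RNA immunoprecipitation sequencing (MeRIP-seq) of chromatin-associated RNA, the RNA that remains with the chromatin fraction of the cell. Fragments bound by an antibody against m6A (the IP library) are sequenced, and a peak is a stretch with more reads than a local background. Liver cancer was represented by HepG2 cells and leukaemia by K562 (myelogenous) and NB4 (acute promyelocytic) cells. HepG2 WT (n = 2) and K562 WT (n = 2) were unmodified cells, and the other groups carried a lentiviral short hairpin RNA that was either a control (K562 Control, n = 2; NB4 Control, n = 3) or directed against the RNA-binding protein RBFOX2 (K562 RBFOX2 KD, n = 2; NB4 RBFOX2 KD, n = 3). The study's methods call the replicates biological and the labels name no separate cultures, so p-values measure the spread between these libraries. Peak lists give no RNA level, so neither the knockdown of RBFOX2 nor the abundance of any of the 7 RNAs can be read from them. Of the 14 lists, the shortest held 22700 peaks and the longest 44088. Of 6 marker genes per line, the K562 libraries had a sense peak on 5 or 6 K562 markers and the NB4 libraries on 4 or 5 NB4 markers, whereas the HepG2 libraries had one on 1 and 4 HepG2 markers, ALB and AFP being without a peak in both. ELANE was without a peak in all 6 NB4 libraries, and GATA1, a K562 marker, had a peak in the 3 NB4 RBFOX2 KD libraries and in none of the 3 NB4 Control libraries. AZU1, an NB4 marker, had a peak in both K562 WT libraries. On RBFOX2 itself there were 3 and 2 sense peaks in K562 Control, 3 and 3 in K562 RBFOX2 KD, 1, 2 and 2 in NB4 Control, and 2, 1 and 1 in NB4 RBFOX2 KD.

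MALAT1 is an abundant, mostly unspliced RNA of nuclear speckles, and NEAT1, its neighbour on chromosome 11, is the scaffold of paraspeckles. KCNQ1OT1 and H19 are imprinted RNAs of another part of chromosome 11. KCNQ1OT1 is transcribed from within KCNQ1 on the opposite strand and is tied to silencing of neighbouring genes in cis, and H19 is the host of the microRNA MIR675. TUG1, NORAD and OIP5-AS1 are known from both nucleus and cytoplasm, where NORAD binds PUMILIO proteins and OIP5-AS1 binds HuR. Adenosine is methylated co-transcriptionally by the METTL3 and METTL14 complex, mostly within the sequence family called DRACH, of which GGACU is the most favoured member.

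The sequences around the recurrent summits are shown first, since the positions below refer to them. Each line gives 101 bases of hg38 on the strand of the RNA, 5′ to 3′ with T for U, centred on the median summit of a site (summits no more than 150 bases apart in the 14 lists), and GGACT is in capitals. They are a selection from the sites found in at least 5 libraries, and other sites shared by as many libraries are not shown. Among those left out are the TUG1 sites at 4164 and 6320 bases (14 libraries each) and the KCNQ1OT1 site at 40841 bases (13 libraries), all without GGACT. The lines shown therefore do not tell how often GGACT occurs, which is counted below.
MALAT1 2853 bases from the start (chr11:65500442-65500542, plus strand), 11 libraries: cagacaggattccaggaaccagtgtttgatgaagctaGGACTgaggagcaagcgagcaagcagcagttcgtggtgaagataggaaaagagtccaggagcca
MALAT1 5287 bases from the start (chr11:65502876-65502976, plus strand), 10 libraries: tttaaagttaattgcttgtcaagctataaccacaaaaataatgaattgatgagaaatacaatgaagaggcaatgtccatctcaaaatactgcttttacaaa
MALAT1 8206 bases from the start (chr11:65505795-65505895, plus strand), 5 libraries, all K562: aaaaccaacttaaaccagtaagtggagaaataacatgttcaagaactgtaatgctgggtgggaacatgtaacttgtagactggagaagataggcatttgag
NEAT1 336 bases from the start (chr11:65423059-65423159, plus strand), 13 libraries: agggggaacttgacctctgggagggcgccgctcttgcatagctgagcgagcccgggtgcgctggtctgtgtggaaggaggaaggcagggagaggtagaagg
KCNQ1OT1 42990 bases from the start (chr11:2656964-2657064, minus strand), 13 libraries: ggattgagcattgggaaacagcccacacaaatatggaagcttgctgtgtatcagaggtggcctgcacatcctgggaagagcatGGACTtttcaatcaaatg
TUG1 1513 bases from the start (chr22:30970707-30970807, plus strand), 14 libraries: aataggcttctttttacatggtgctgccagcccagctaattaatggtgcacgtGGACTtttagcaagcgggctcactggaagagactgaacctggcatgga
TUG1 2330 bases from the start (chr22:30971524-30971624, plus strand), 10 libraries: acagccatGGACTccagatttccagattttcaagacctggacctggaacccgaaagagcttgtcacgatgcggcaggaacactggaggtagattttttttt
NORAD 582 bases from the start (chr20:36050387-36050487, minus strand), 14 libraries: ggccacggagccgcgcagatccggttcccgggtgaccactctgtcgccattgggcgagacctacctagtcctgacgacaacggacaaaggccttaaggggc
OIP5-AS1 14413 bases from the start (chr15:41298320-41298420, plus strand), 14 libraries: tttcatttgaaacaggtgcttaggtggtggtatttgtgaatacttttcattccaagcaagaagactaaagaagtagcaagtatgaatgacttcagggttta
OIP5-AS1 15446 bases from the start (chr15:41299353-41299453, plus strand), 6 libraries, all K562: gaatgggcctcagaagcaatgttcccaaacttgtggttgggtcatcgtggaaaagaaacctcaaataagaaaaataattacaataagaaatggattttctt

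Of 76 sense sites in the 7 genes, 11 had GGACU within 50 bases of the median summit. Counted over summits and within 75 bases, GGACU was near 132 of 431 summits of the 7 genes (30.6%, 95% Wilson interval 26.5 to 35.1%) and near 25.1% of all summits. Repeated summits at one site share one sequence, so the interval, which covers counting error only, is narrower than independent sites would give. With 50 bases in place of 75 the shares were 19.7% and 18.6%, so the gap between the 7 genes and all summits depended on the distance allowed. By gene and within 75 bases, GGACU was near 40.7% of 199 KCNQ1OT1 summits and 43.8% of 32 OIP5-AS1 summits, which fell to 23.6% and 3.12% within 50 bases. It was near 27.5% of 40 MALAT1 summits and 24.3% of 107 TUG1 summits at both distances. It was near none of the 28 NEAT1, 6 H19 and 19 NORAD summits. A sequence of the wider DRACH family was nonetheless within 50 bases of the median summit at all 4 NEAT1, 2 H19 and 3 NORAD sites. The same held for 75 of the 76 sites of the 7 genes. How often DRACH lies near all summits was not counted. UGCAUG, the canonical RBFOX2 motif, was near 7 of the 431 summits (1.62%, 95% Wilson interval 0.789 to 3.31%), against 3.61% of all summits. All 7 were in KCNQ1OT1, with at most 1 in a library, so they may repeat the same few sites. Within 50 bases UGCAUG was near 0.928% of the 431 summits and 2.40% of all summits. AGAUG, the other motif searched, was near 21.1% of the 431 summits and 22.8% of all summits, and within 50 bases near 10.9% and 16.0%. Its share by gene changed with the distance too, from 14 to 3 of 28 summits in NEAT1 and from 41 to 26 of 107 in TUG1. Each motif was searched on the strand of the peak only.

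MALAT1 (ENSG00000251562.11) covers chr11:65497640-65508073 on the plus strand and its annotated canonical transcript is 1 exon of 10434 bases. Both HepG2 WT libraries had no sense peak on it, whereas all 6 K562 and all 6 NB4 libraries had between 2 and 6. Sense peaks covered 4340 and 3544 bases in K562 WT 1 and 2, 2865 and 3671 bases in K562 Control 1 and 2, and 3372 and 3435 bases in K562 RBFOX2 KD 1 and 2. They covered 1511, 1236 and 566 bases in NB4 Control 1, 2 and 3, and 1534, 2032 and 1640 bases in NB4 RBFOX2 KD 1, 2 and 3. Every K562 library was thus above every NB4 library. In K562 a wide peak of up to 2855 bases ran over the first part of the RNA, and in NB4 the same stretch was broken into peaks of at most 869 bases.

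Position by position, the site at 2814 to 2945 bases was found in all 6 K562 and 5 NB4 libraries, and the site at 5283 to 5298 bases in all 6 K562 and 4 NB4 libraries. The site at 8205 to 8208 bases was found in 5 of 6 K562 libraries and in no NB4 library. In contrast, the site at 1592 to 1594 bases was found in 4 NB4 libraries and the site at 1947 to 2020 bases in 5, and neither was a separate summit in K562. The map of peaks along MALAT1 and NEAT1 shows these positions library by library.

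**Figure D1:**
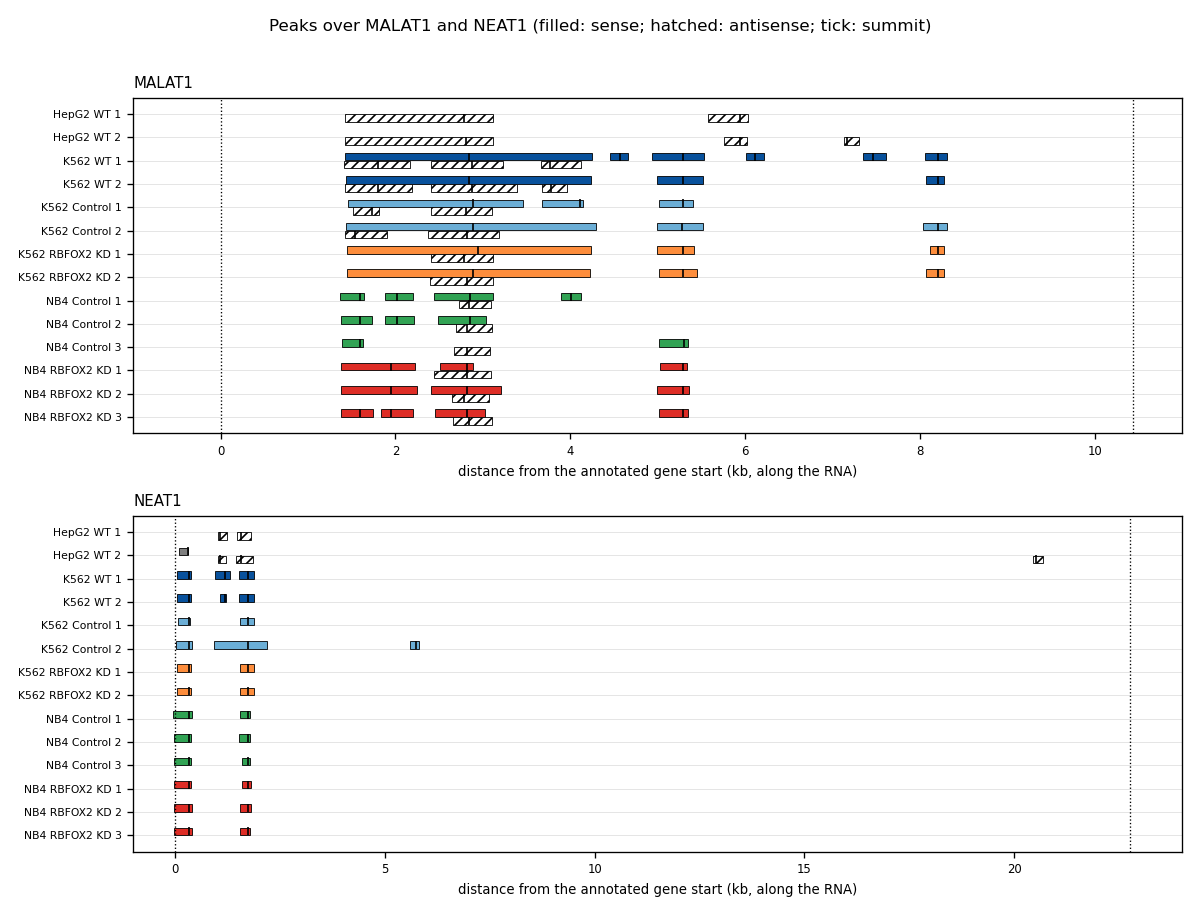
Peaks over MALAT1 (upper panel) and NEAT1 (lower panel) in the 14 libraries, against distance from the annotated gene start in kilobases along the RNA; filled bars are sense peaks coloured by group, hatched bars are antisense peaks, ticks are summits and dotted lines the gene start and end. Sense MALAT1 peaks are absent in both HepG2 WT libraries and cover 2865 to 4340 bases in K562 and 566 to 2032 bases in NB4, and all but 1 of the 28 sense NEAT1 summits lie in the first 1749 bases.

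MALAT1 peaks had low folds over their local background and in most libraries reached the limit of what the peak calling could record. Which library gave that background was not stated in the sources used here. The fold of the summit over its local background was at most 1.68 to 3.69 in the 12 libraries with a peak. On NORAD it was at most 17.7 to 42.2 in K562 and 11.4 to 15.3 in NB4. The local background itself, solved from the fold and p-value of the strongest summit, was 19.4 to 67.9 times the genome-wide background of the same strand. Such a local background was rare, since 0.0701 to 3.03% of all summits in a list had a local background at least 10 times the genome-wide one. The pileup, the number of reads over the summit, reached exactly 750 in MALAT1 in 10 of the 11 libraries in which pileups were whole numbers, and 747 in the remaining one, NB4 RBFOX2 KD 2. Peak calling kept at most 5 reads per start position and extended each to 150 bases, so 750 is the highest pileup possible on a strand. Over all genes 26 summits stood at this ceiling in those 11 libraries, 11 of them in MALAT1 and the other 15 in CALR, PRRC2C, NOM1, SREK1 and STXBP5. Differences in height between libraries at those MALAT1 summits therefore cannot be read from the lists. The ceiling bounds the fold of these summits too, which limits the comparison with NORAD.

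Antisense peaks over MALAT1 were found in more libraries than the sense peaks. A site at 2783 to 2873 bases, within the annotated antisense gene TALAM1, was found in all 14 libraries including both of HepG2 WT. It lies on the same bases as the sense site at 2814 to 2945 bases. Whether its reads come from antisense RNA or from sense RNA read on the wrong strand was not tested. The highest antisense percentile (the rank of the -log10 q-value within the list, 100 being the strongest peak) was 79.6 and 88.5 in HepG2 WT, 93.6 to 97.1 in K562 and 69.5 to 83.0 in NB4. The antisense fold was 3.26 and 4.23 in HepG2 WT, 5.67 to 16.4 in K562 and 4.60 to 10.1 in NB4. It exceeded the sense fold in each of the 12 libraries with peaks on both strands. Sense pileups on MALAT1 reached the ceiling of 750 in most of these libraries, over a high local background. That bounds the sense fold, so the fold does not compare the strands evenly. Whole lists had a median fold of 3.84 and 4.03 in HepG2 WT, 5.68 to 8.01 in K562 and 5.08 to 6.14 in NB4. Antisense peaks covered 2147 and 2133 bases in HepG2 WT, 2042 and 2052 bases in K562 WT, 719 to 1297 bases in the 4 K562 hairpin libraries and 365 to 651 bases in NB4.

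NEAT1 (ENSG00000245532.11) covers chr11:65422774-65445540 on the plus strand. Its canonical transcript is the long isoform, 1 exon of 22743 bases, and the short isoform shares the 5′ part. HepG2 WT 1 had no sense peak and HepG2 WT 2 had 1, at percentile 0.0765 with a fold of 1.21, although its pileup was 500 and its local background 23.4 times the genome-wide one. All 12 K562 and NB4 libraries had a summit at 305 to 339 bases (13 libraries with HepG2 WT 2) and another at 1739 to 1749 bases. K562 WT 1 and 2 had a further summit at 1187 and 1192 bases, and K562 Control 2 had one at 5740 bases, the only sense summit in the part of the gene beyond 1749 bases.

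Sense peaks on NEAT1 covered 1067 and 824 bases in K562 WT, 632 and 1829 bases in K562 Control, and 667 and 687 bases in K562 RBFOX2 KD. They covered 675, 658 and 566 bases in NB4 Control and 640, 685 and 667 bases in NB4 RBFOX2 KD. Apart from K562 Control 2, whose second peak was 1252 bases wide, the Control and KD libraries overlapped closely. The highest percentile of NEAT1 was 60.3 to 80.6 in K562 and 56.6 to 85.1 in NB4, where the summit at 305 to 339 bases was the strongest in all 6 libraries. Antisense NEAT1 peaks were found in HepG2 WT only, in both libraries at 1076 and 1077 bases and at 1560 to 1566 bases.

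KCNQ1OT1 (ENSG00000269821.2) covers chr11:2597308-2700003 on the minus strand, 102696 bases. It held 199 of the 431 sense summits, none of them in an exon of the canonical spliced transcript and all of them within an exon of another annotated transcript. Merging overlapping peaks of the 14 lists gave 27 regions, and only 1 of them, chr11:2656259-2657565 with summits at 42880 to 43517 bases, had a peak in all 14 libraries. Another 4 had a peak in 13. The highest mean percentile over libraries with a peak, 73.4, was in chr11:2634926-2635340, found in the 2 HepG2 WT libraries only. No sense summit lay beyond 68680 bases of the gene start, so the 3′ part of the annotated gene was without a peak in any list.

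HepG2 WT stood apart on this gene. Sense peaks covered 13823 and 17447 bases in HepG2 WT 1 and 2, 3137 and 3294 in K562 WT 1 and 2, 4824 and 5830 in K562 Control 1 and 2, and 5184 and 4619 in K562 RBFOX2 KD 1 and 2. They covered 1227, 3083 and 2704 bases in NB4 Control 1, 2 and 3, and 5670, 4806 and 4131 bases in NB4 RBFOX2 KD 1, 2 and 3. By covered bases KCNQ1OT1 ranked 9 of 9299 genes with a sense peak in HepG2 WT 1 and 8 of 10172 in HepG2 WT 2, against ranks of 416 to 1334 in K562 and 250 to 2429 in NB4. The rank depends on gene length as well as on peaks. The highest percentile was 95.3 and 96.0 in HepG2 WT, 71.8 to 86.2 in K562 and 53.7 to 79.6 in NB4.

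All HepG2 WT summits but 1, at 31383 bases in HepG2 WT 2, lay between 39948 and 68680 bases from the start, and the widest peak, of 3428 bases, was in HepG2 WT 2. The site at 3569 to 3738 bases was found in 9 K562 and NB4 libraries and the site at 688 to 720 bases in 4 K562 libraries, 2 of them K562 WT. The site at 37321 to 37348 bases was found in all 12 K562 and NB4 libraries and in neither HepG2 WT library. The site at 36392 to 36437 bases was found in all 4 K562 hairpin libraries and 1 NB4 library, and not in K562 WT. Folds were ordered differently from lengths, with a highest fold of 7.57 and 8.10 in HepG2 WT, 9.75 to 22.0 in K562 and 6.85 to 10.0 in NB4. The median fold of whole lists was 3.84 and 4.03 in HepG2 WT, 5.68 to 8.01 in K562 and 5.08 to 6.14 in NB4.

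**Figure D2:**
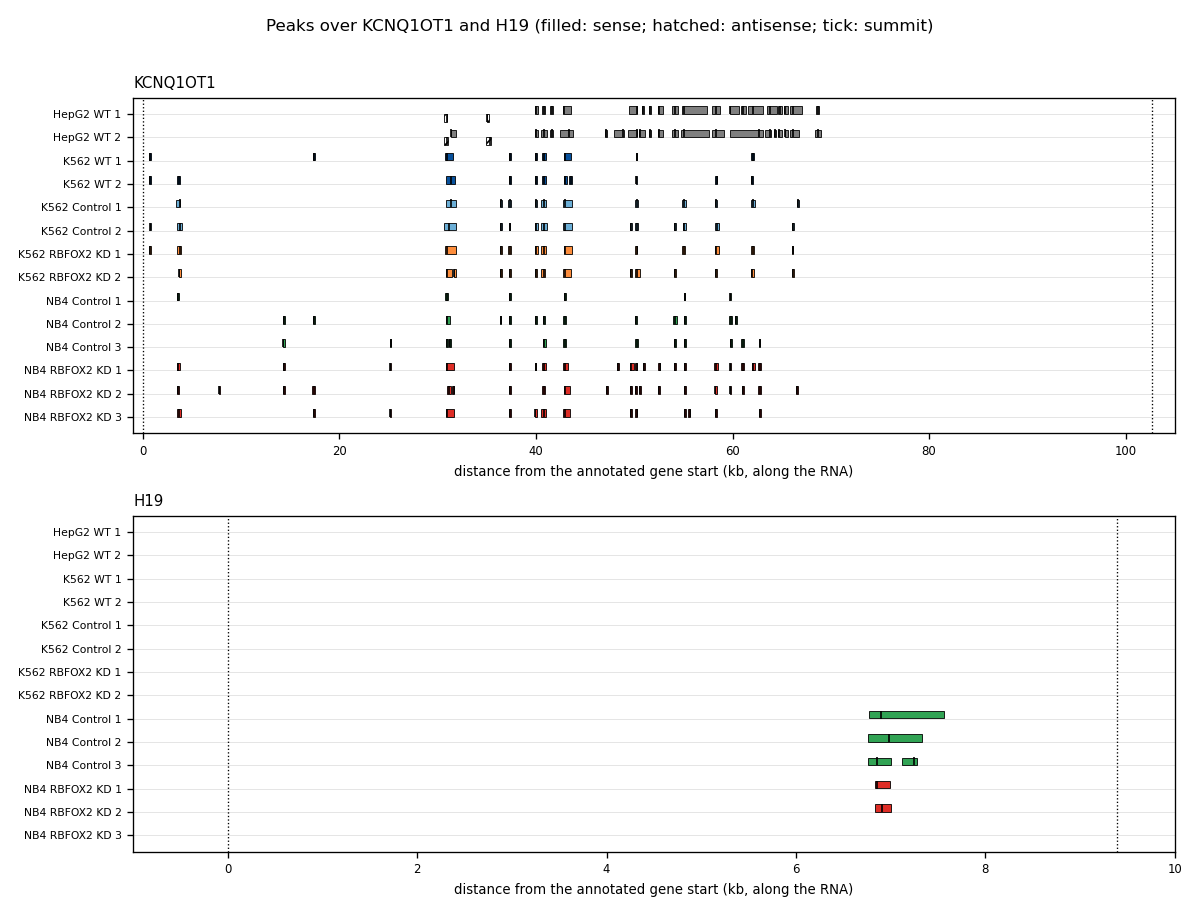
Peaks over KCNQ1OT1 (upper panel) and H19 (lower panel) in the 14 libraries, against distance from the annotated gene start in kilobases along the RNA; filled bars are sense peaks coloured by group, hatched bars are antisense peaks, ticks are summits and dotted lines the gene start and end. HepG2 WT covers 13823 and 17447 bases of KCNQ1OT1, no sense KCNQ1OT1 summit lies beyond 68680 bases, and H19 has peaks in 5 NB4 libraries only.

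H19 (ENSG00000130600.22) covers chr11:1995166-2004552 on the minus strand. It had no sense peak in the 2 HepG2 WT and 6 K562 libraries, no antisense peak anywhere, and sense peaks in 5 of the 6 NB4 libraries. All were in 1 region, chr11:1996990-1997793, which lies in exons of annotated transcripts other than the canonical one and ends 158 bases before the MIR675 hairpin (chr11:1996759-1996831) in the direction of transcription. Peaks covered 796, 569 and 398 bases in NB4 Control 1, 2 and 3, and 162, 160 and 0 bases in NB4 RBFOX2 KD 1, 2 and 3. The highest percentile was 79.2, 48.7 and 64.4 in NB4 Control, and 40.5 and 28.6 in NB4 RBFOX2 KD 1 and 2, NB4 RBFOX2 KD 3 being without a peak. The Control libraries were above the KD libraries in both measures, without overlap.

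TUG1 (ENSG00000253352.10) covers chr22:30969245-30979395 on the plus strand and is typed as protein coding in GENCODE 44 although generally known as a lncRNA. It carried 5 to 11 sense peaks in every library, and 106 of its 107 summits lay in exons of the canonical transcript. They covered 5443 and 5370 bases in HepG2 WT 1 and 2, 3935 to 4978 bases in K562 and 3464 to 4366 bases in NB4, so that both HepG2 WT libraries were above the other 12. The highest percentile was 84.3 to 95.1 over all libraries. Of its 6 regions 4 had a peak in all 14 libraries, and the one with the highest mean percentile (90.5, chr22:30975160-30979003) spanned most of the last exon.

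A pair of TUG1 sites separated the K562 hairpin libraries from the rest. The site at 481 to 506 bases was found in HepG2 WT, K562 WT and NB4, 10 libraries in all, and in none of the 4 K562 hairpin libraries. Within the region chr22:30971185-30971719, present in all 14, the summit was at 2114 to 2136 bases in the 4 K562 hairpin libraries and at 2316 to 2338 bases in the other 10. The hairpin and any other difference between the K562 WT and the K562 hairpin libraries cannot be told apart.

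The strongest antisense peaks at TUG1 lay upstream of its start, over the first bases of MORC2, which is transcribed in the other direction. A minus-strand region at chr22:30967531-30969296 was found with its summit 605 to 624 bases upstream in 12 libraries, at percentile 89.8 to 96.6. In K562 Control 2 and K562 RBFOX2 KD 2 the peak over the same bases had its summit 1247 and 1243 bases upstream and was therefore outside the 1000-base limit, at percentile 90.4 and 91.3. Weaker antisense summits inside TUG1 were found at 220 bases in K562 WT 1, at 6157 to 6220 bases in 2 NB4 Control libraries, and at 8076 to 8135 bases in K562 RBFOX2 KD 2 and NB4 Control 1, at percentiles of 0.374 to 27.0.

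NORAD (ENSG00000260032.2) covers chr20:36045618-36051018 on the minus strand as 1 exon of 5401 bases. One region, chr20:36049414-36050980, near the 5′ end, had a peak in all 14 libraries, with a summit at 579 to 662 bases. By percentile it held the strongest peaks of the 7 genes in K562 and NB4. By highest fold, TUG1 (12.9 to 19.3) was above NORAD in each NB4 library. The highest percentile of NORAD was 75.6 and 95.4 in HepG2 WT 1 and 2, 98.7 to 99.7 in K562 and 95.8 to 99.4 in NB4. The highest fold of any NORAD peak was 2.81 and 4.45 in HepG2 WT, 17.7 to 42.2 in K562 and 11.4 to 15.3 in NB4, so the lines did not overlap. In HepG2 WT 1 and NB4 Control 1 the summit with the highest percentile was not the one with the highest fold. Its own fold was 2.74 and 9.22. The median fold of whole lists was also lowest in HepG2 WT, at 3.84 and 4.03, against 5.68 to 8.01 in K562 and 5.08 to 6.14 in NB4. The share of all genes whose folds did not overlap between lines was not counted. The local background was 6.07 and 6.37 times the genome-wide one in HepG2 WT and 1.19 to 4.99 times in the other libraries.

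Covered length of NORAD was 1098 to 1265 bases in K562, and 942, 948 and 954 bases in NB4 Control against 1066, 1029 and 1061 bases in NB4 RBFOX2 KD. The NB4 groups did not overlap in covered length and also differed in shape. Each NB4 Control library had 2 peaks with a gap of 119 to 133 bases, spanning 1072 to 1075 bases together, and each NB4 RBFOX2 KD library had 1 peak over the same stretch. The KD lists were called at a greater depth, 16.8 to 21.9 M effective reads against 10.8 and 14.1 M in NB4 Control 1 and 2, NB4 Control 3 being rescaled. The part of depth in the split was not tested, and genes with such a split were not counted.

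OIP5-AS1 (ENSG00000247556.7) covers chr15:41283958-41322392 on the plus strand. A readthrough gene on the same strand, ENSG00000285920, overlaps it from base 50 onward, so its peaks cannot be assigned to OIP5-AS1 alone. The region chr15:41298199-41298585, with summits at 14380 to 14489 bases, had a peak in all 14 libraries at percentile 38.9 to 80.5. A second site at 15395 to 15450 bases was found in all 6 K562 libraries and in no other library. Another at 1255 to 1268 bases was found in all 6 NB4 and both K562 WT libraries and in none of the 4 K562 hairpin libraries, and 1 of its 8 summits lay within an annotated exon. A further site at 86 to 122 bases, at the start of the gene, was found in 4 NB4 libraries. Covered length was 320 and 252 bases in HepG2 WT, 862 and 890 in K562 WT, 498 to 675 in the K562 hairpin libraries and 404 to 693 in NB4.

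**Figure D3:**
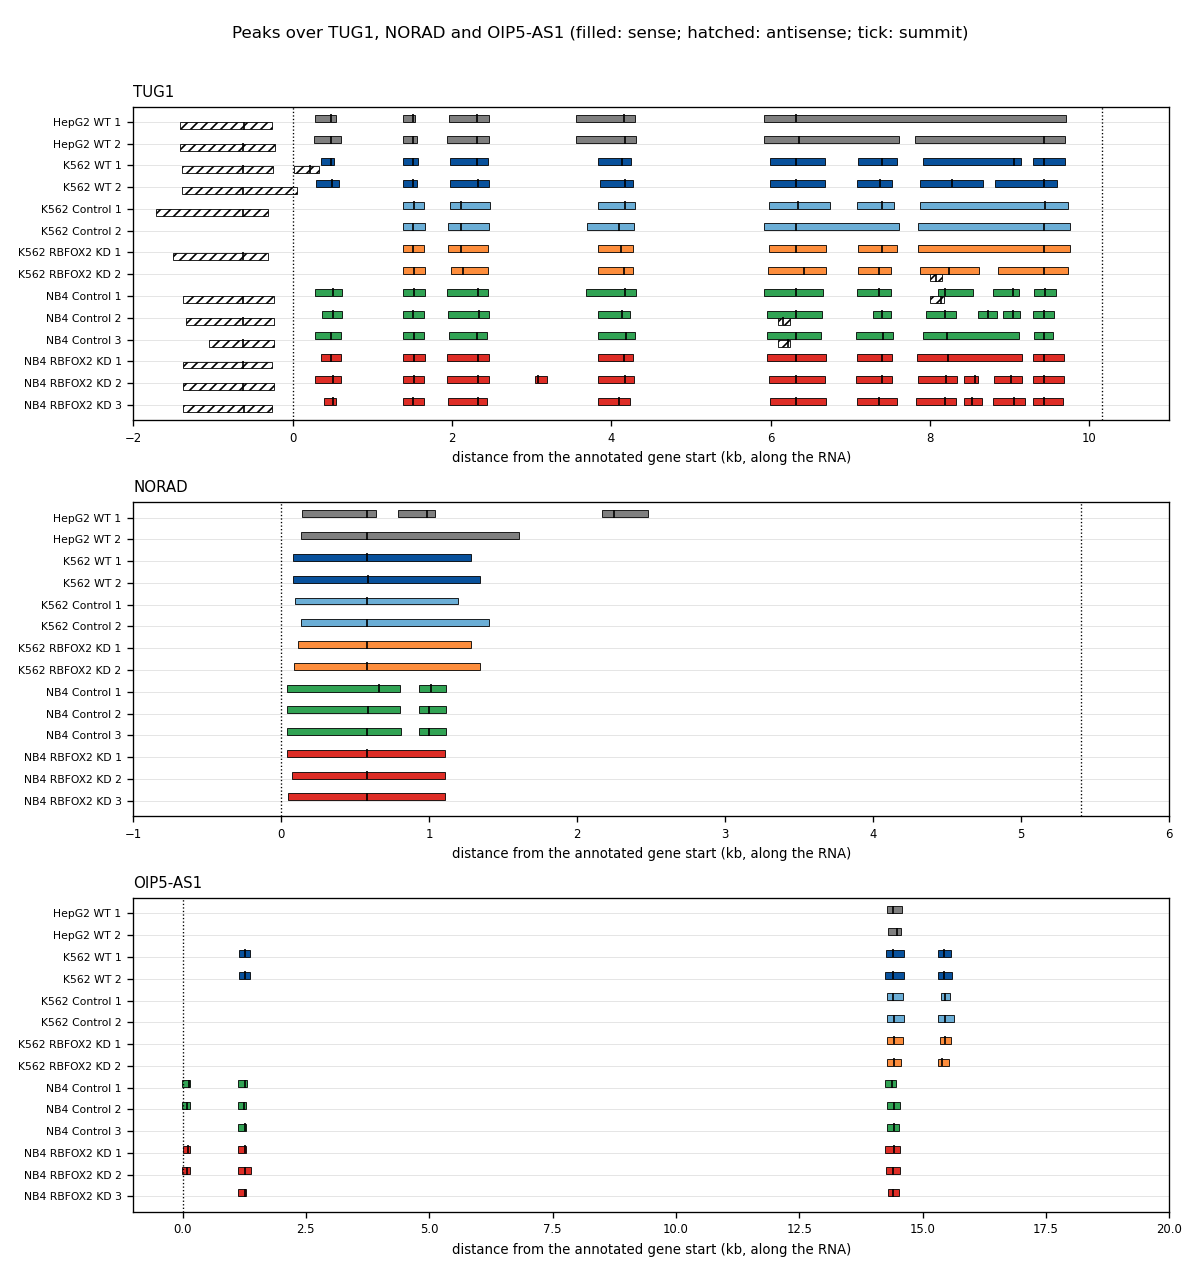
Peaks over TUG1, NORAD and OIP5-AS1 (from top to bottom) in the 14 libraries, against distance from the annotated gene start in kilobases along the RNA; filled bars are sense peaks coloured by group, hatched bars are antisense peaks, ticks are summits and dotted lines the gene start and end, and OIP5-AS1 is drawn to 20 kb because it has no sense summit beyond 15450 bases. NORAD has 2 peaks in each NB4 Control library and 1 in each NB4 RBFOX2 KD library, and the OIP5-AS1 site at 15395 to 15450 bases is in the 6 K562 libraries only.

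The first comparison was between K562 WT and HepG2 WT, which describe unmodified cells. With 2 libraries against 2 the exact two-sided permutation test cannot go below p = 0.333, so none of these differences can pass 0.05. Covered length was higher in both K562 WT libraries than in both HepG2 WT libraries for 3 of the 7 genes, MALAT1 (by 3942 bases on average), NEAT1 (by 838.5 bases) and OIP5-AS1 (by 590 bases). This was also so for 68.7% of the 14356 genes with a sense peak in at least 2 of these 4 libraries. MALAT1, without a sense peak in HepG2 WT, was among these genes through K562 WT alone, which fixed its direction. Covered length was higher in both HepG2 WT libraries for KCNQ1OT1 (mean 15.1% of the window against 3.10%) and TUG1 (48.5% against 36.3%), as it was for 19.1% of all genes. NORAD overlapped, with 19.7% of its window in HepG2 WT and 19.3% in K562 WT, and H19 had no peak in either.

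The second comparison was between K562 and NB4, over the Control and KD libraries of both lines. Line labels were permuted within the Control and within the KD libraries, which allows 100 arrangements and p down to 0.02, and p-values were adjusted (Benjamini-Hochberg) over all 15331 genes with a sense peak in at least 2 of the 10 libraries. Covered length was called higher in K562 for MALAT1, by 1916 bases or 16.8% of its window, and for NORAD, by 196.5 bases or 3.07% of its window (both exact permutation p = 0.02, adjusted p = 0.0396). All 4 K562 libraries were above all 6 NB4 libraries for each of them. The 2 calls among 7 stand beside 55.1% of all genes called, 39.1% higher and 16.0% lower in K562. NEAT1, KCNQ1OT1, TUG1 and OIP5-AS1 did not pass, with KCNQ1OT1 at 1.46% of its window or 1511 bases (exact permutation p = 0.1, and 1.52% with p = 0.04 with lists of equal length). H19, without a peak in K562, was among the genes tested through its NB4 peaks alone, which fixed the direction, so no test of it is given.

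By the highest percentile, MALAT1 was 23.4 points higher in K562 and KCNQ1OT1 18.3 points higher (both exact permutation p = 0.04, adjusted p = 0.0758). Of all genes 52.7% were called, 32.4% higher and 20.3% lower in K562. Leaving out 1 library at a time gave p from 0.0333 to 0.15 for MALAT1 and from 0.0333 to 0.1 for KCNQ1OT1. The MALAT1 call held only without K562 Control 1 or NB4 Control 1 (30.0 and 27.1 points) and the KCNQ1OT1 call only without K562 RBFOX2 KD 2 or NB4 RBFOX2 KD 1 (19.5 and 21.4 points). With lists of equal length MALAT1 differed by 31.8 points (exact permutation p = 0.08). NEAT1, TUG1, NORAD and OIP5-AS1 did not pass, their differences being -7.92, -3.87, 1.31 and -0.58 points.

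**Figure D4:**
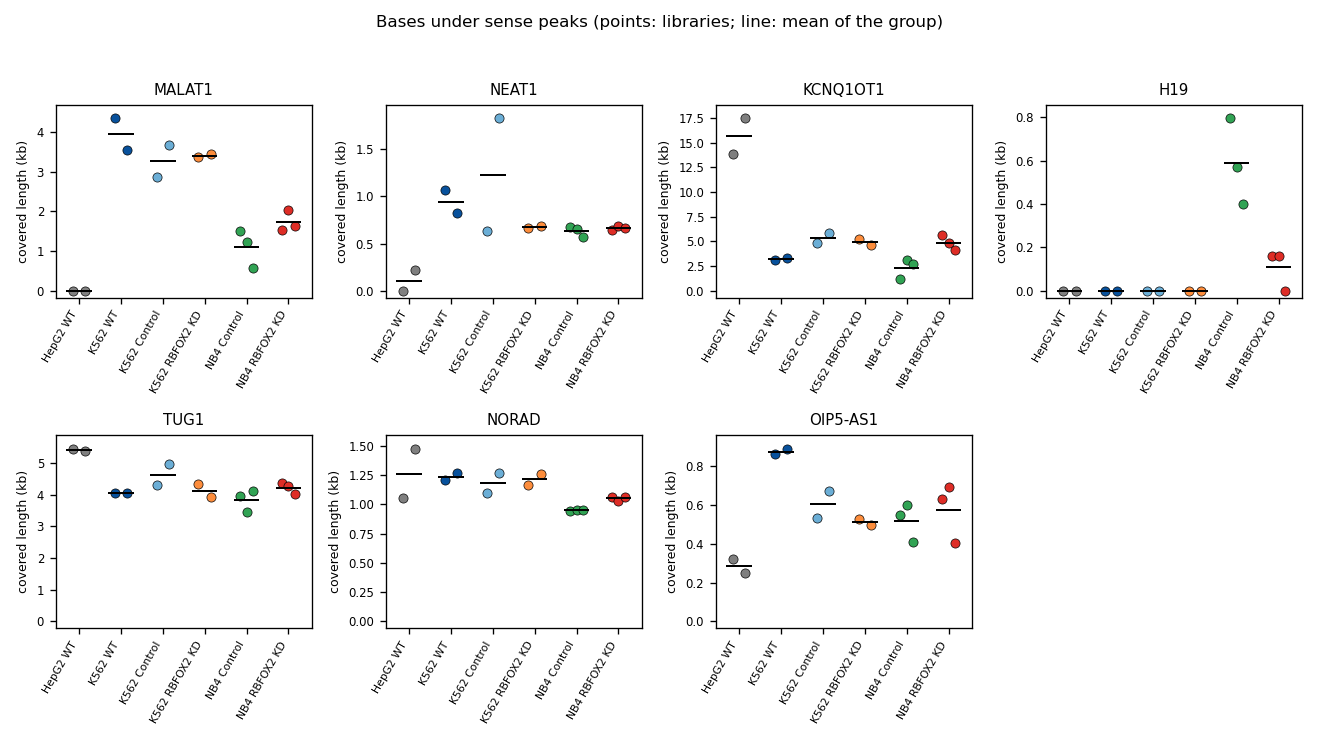
Bases under sense peaks in kilobases (vertical axis, from 0) for each of the 7 genes and 6 groups; each point is 1 library and each black line the mean of its group. MALAT1 covers 2865 to 4340 bases in K562, 566 to 2032 in NB4 and 0 in HepG2 WT, and H19 has 398 to 796 bases in NB4 Control and 0 to 162 in NB4 RBFOX2 KD.

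The third comparison was between RBFOX2 KD and Control, which addresses whether m6A on chromatin-associated RNA changes when RBFOX2 is depleted. The difference was taken within each line and averaged, and labels were permuted within lines, which allows 120 arrangements and p down to 0.0167. None of the 7 genes was called by covered length, where 5.5% of all genes were called, 3.8% higher and 1.7% lower. None was called by the highest percentile either, where 5.99% of all genes were called, 3.94% higher and 2.05% lower. H19 could not have been called, since it had no peak in the 4 K562 libraries and its p could not go below the 0.1 that NB4 alone allows. Its KD minus Control difference in NB4 was -4.62% of the window and -41.1 points. No gene of the 15331 had an adjusted p under 0.05 by either measure, and 843 and 919 genes had an unadjusted exact permutation p at or under 0.05. MALAT1 differed by 383 bases (exact permutation p = 0.183) and KCNQ1OT1 by 1053 bases (exact permutation p = 0.15), both higher in KD.

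Within NB4 alone the exact permutation test of 3 libraries against 3 cannot go below p = 0.1. The 3 KD libraries covered more bases than the 3 Control libraries, without overlap, on MALAT1, KCNQ1OT1 and NORAD, as they did on 25.7% of the 12141 genes with a peak in at least 2 of these 6 libraries. H19 was the only one of the 7 with less covered in all 3 KD libraries, as was the case for 4.74% of genes. By the highest percentile no gene of the 7 was higher in all KD libraries (16.2% of all genes) and H19 was lower (7.4% of all genes). The NB4 KD lists were called at a greater depth than the Control lists, 16.8 to 21.9 M effective reads against 10.8 and 14.1 M in NB4 Control 1 and 2, while NB4 Control 3 had rescaled reads. Peak widths at another depth cannot be recomputed from the lists. With all lists cut to the length of the shortest, H19 covered 796, 569 and 242 bases in NB4 Control and 0 bases in all 3 NB4 RBFOX2 KD libraries, whereas KCNQ1OT1 covered 1077, 1834 and 1622 bases in NB4 Control and 3021, 1350 and 2230 bases in NB4 RBFOX2 KD, which overlapped. MALAT1 overlapped too, with 1282, 911 and 324 bases in NB4 Control and 0, 1229 and 1640 bases in NB4 RBFOX2 KD, and NORAD was as before. The part of depth and list length in these differences was not tested further.

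Within K562, where the exact permutation test of 2 against 2 cannot go below p = 0.333, OIP5-AS1 had less covered in both KD libraries (533 and 675 bases in Control, 529 and 498 bases in KD), as did 21.5% of the 12393 genes. KCNQ1OT1 had a lower highest percentile in both KD libraries (86.2 and 85.3 in Control, 82.5 and 77.6 in KD), as did 17.2% of genes. No gene of the 7 was higher in both KD libraries by covered length (7.93% of genes) or by the highest percentile (12.0% of genes). H19 was without a peak in all 4 libraries.

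**Figure D5:**
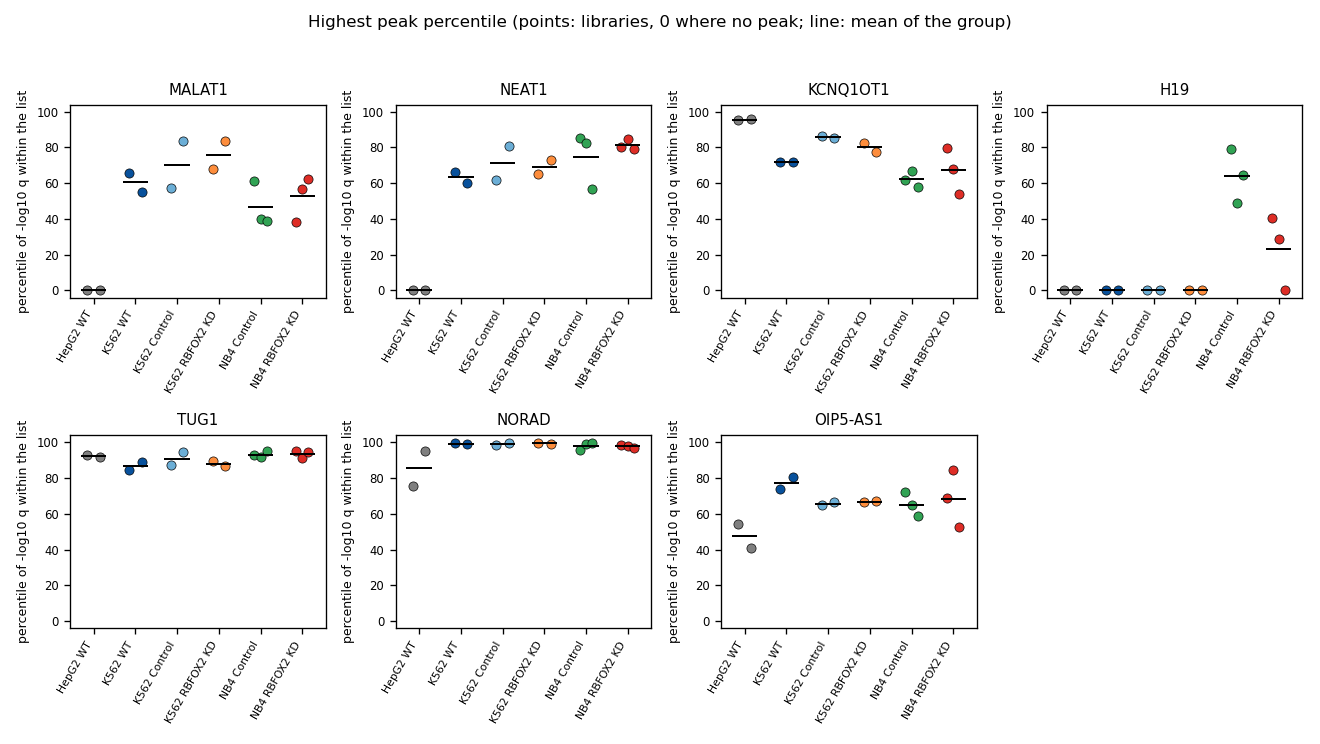
Highest percentile of the -log10 q-value within the list among the sense peaks of each gene (vertical axis, 0 to 100, 0 where there is no peak), for the 7 genes and 6 groups; each point is 1 library and each black line the mean of its group. NORAD lies at 95.8 to 99.7 in K562 and NB4, and H19 at 48.7 to 79.2 in NB4 Control and 0 to 40.5 in NB4 RBFOX2 KD.

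The change on knockdown was also compared between the lines. For covered length the KCNQ1OT1 change was -0.41% of the window in K562 and 2.44% in NB4, a difference of -2.85% or -2956.5 bases (exact permutation p = 0.0333, adjusted p = 0.461). It was the only call among the 7, where 10.3% of all genes were called, 0.652% in the positive and 9.65% in the negative direction. Leaving out 1 library at a time gave p from 0.0333 to 0.0667, with 8 of the 10 omissions at 0.0667, those of K562 Control 2, K562 RBFOX2 KD 2 and each of the 6 NB4 libraries, and values from -3.34 to -2.32%. With lists of equal length the difference was -0.675% (exact permutation p = 0.517). TUG1 differed by -7.90% of its window (exact permutation p = 0.0667). By the highest percentile none of the 7 was called, against 6.61% of all genes, 1.66% in the positive and 4.94% in the negative direction. For H19 this comparison holds no more than its NB4 change.

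Single regions were followed in the same way. A region was lost when every Control library and no KD library of a line had a peak on it, and gained in the reverse case. Of 30 K562 regions in the 7 genes 0 were lost and 0 gained, against 1.74% lost and 1.76% gained of all K562 regions. Of 48 NB4 regions 0 were lost and 2 gained, against 0.612% lost and 3.67% gained of all NB4 regions. Both gained regions were in KCNQ1OT1. One, chr11:2641512-2641852 with summits at 58259 to 58340 bases, had percentiles of 40.1 to 53.4 and the other, chr11:2650053-2650446 with summits at 49667 to 49699 bases, of 25.4 to 55.8. Summits of the same sites were found in 5 and 2 K562 libraries.

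A list of 16 other noncoding RNA genes gave the setting. FIRRE, LINC-PINT and CYTOR had a sense peak in all 14 libraries, and HOTAIR, HOTAIRM1, DANCR, MIR100HG, TERC and RMRP had none in any. HOTTIP, a transcript of the HOXA cluster, had a peak in the 6 NB4 libraries only and SNHG14 in the 2 HepG2 WT libraries only. Of the 8 that could be tested, 1 was called higher in K562 by covered length (39.1% of all genes) and 3 by the highest percentile (32.4% of all genes). HOTTIP, called lower by both, was among the genes tested through NB4 alone, which fixed its direction. GNAS-AS1 and RN7SK, without a peak in NB4, were tested through K562 alone. On knockdown and for the difference between lines, HOTTIP, GNAS-AS1 and RN7SK could not have been called. Their exact permutation p cannot go below the 0.1 of NB4 alone or the 0.333 of K562 alone. On knockdown 1 of the 8 was called higher by covered length (DLEU2, by 826 bases, exact permutation p = 0.0167, adjusted p = 0.717, beside 3.8% of all genes) and 1 by the highest percentile (CYTOR, by 4.11 points, exact permutation p = 0.05, adjusted p = 0.68, beside 3.94% of all genes), and none lower by either. For the difference between lines 3 of the 8 were called in the negative direction by covered length, FIRRE, LINC-PINT and CYTOR (-2297, -973 and -1327 bases), as were KCNQ1OT1 and 9.65% of all genes. LINC-PINT was also called by the highest percentile (4.94% of all genes).

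Among 1489 lncRNA genes with a sense peak in at least 7 libraries, those most like each of the 7 in the highest percentile over the 14 libraries were sought as a description. The points share depth and list length, each r is picked as the highest among these candidates, and no p is given. NORAD stood at 75.6 in HepG2 WT 1 and at 95.4 to 99.7 elsewhere. MALAT1 and NEAT1 stood at 0 to 0.0765 in HepG2 WT, 0 being set where there was no peak. These libraries weigh heavily in the r of the 3 genes. NORAD was most like ENSG00000288850 (Pearson r = 0.987) and SLX1A-SULT1A3 (0.974), and NEAT1 most like ENSG00000261613 (0.964) and LINC01237 (0.956). MALAT1 was most like ENSG00000288559 (0.935) and ENSG00000280018 (0.932), and KCNQ1OT1 most like ZNF337-AS1 (0.904) and ENSG00000291008 (0.902). OIP5-AS1 was most like C10orf95-AS1 (0.877) and LINC01004 (0.810), and TUG1 most like ENSG00000291175 (0.858) and ENSG00000277463 (0.843). H19 had too few libraries with a peak.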

How the data were processed

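MeRIP-seq peak lists of 14 IP libraries were analysed, and the 14 input libraries were not analysed here. Per the labels and the methods of the study, RNA of the chromatin fraction was depleted of rRNA, enriched with an m6A antibody kit and sequenced with a strand-specific kit. According to the submitters' processing notes and methods, reads were trimmed with Trimmomatic 0.39, aligned to hg38 with HISAT2 2.1.0 (GENCODE release 29) and split by strand with SAMtools 1.9, and peaks were called with MACS version 2 (extension 150 bases, up to 5 duplicates, genome size 1.3e+08, q under 0.01) for each library and strand. The authors deposited, for each peak, a fold (summit over local background), -log10 values of p and of q, a score (-log10 q times 10, cut to a whole number) and the summit position. The lists hold no read counts. Which library served as background was not stated in the sources used here.

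Here 496678 of 515981 peaks, those of the autosomes, X and Y, were assigned to GENCODE 44 genes by summit and strand. Pileup and local mean were solved from the fold, (pileup + 1) / (local mean + 1), and the Poisson p-value, and came out whole (within 0.05) in 11 libraries. HepG2 WT 1, HepG2 WT 2 and NB4 Control 3 held rescaled reads. The lowest local mean on a strand times the genome size over 150 gives the effective reads, 10.8 to 25.6 M in the 11 libraries.

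For each gene the percent of its window under sense peaks and the highest percentile were tested with exact two-sided permutation tests over libraries, Benjamini-Hochberg adjusted over 15331 genes, and called at an unadjusted p at or under 0.05. The tests were checked on generated test data with known answers. Alternatives were a -log10 q-value of at least 5, equal list lengths, matched depth (scaled summits with a -log10 p-value of at least 5), gene body only, any overlap, both strands together, log2 of covered bases plus 100, a wider gene filter, each library left out and pairing by replicate number. The genes named were the 7, the fixed list of 16 and the 2 most alike lncRNAs of each. The regions named were those in all 14 libraries (or their count), those with the highest mean percentile and those lost or gained. Further sites outside this rule were described as well. The 7 genes, the lists and the tests were chosen with earlier results of these data known. Python 3.11.15, numpy 2.4.6, pandas 2.3.3, scipy 1.17.1 and matplotlib 3.10.9 were used.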

Additional observations from a re-analysis of the deposited data

Results flagged for a closer look

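The change of KCNQ1OT1 covered length on RBFOX2 knockdown differed between the lines, K562 minus NB4, by -2.85% of its window (exact permutation p = 0.0333, adjusted p = 0.461). The groups of 2 and 3 libraries are too small for a test of single outlying libraries.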

How the results depend on the processing

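Values are percent of the gene window for covered length and points for percentiles. Same-numbered Control and KD libraries did not deviate together (r of -0.0524 and -0.0692 in K562 and -0.204 to 0.0591 in NB4 over genes, other pairs -0.105 to 0.154 in NB4), so the numbers were not taken to pair the libraries. The test with pairs as a block (32 arrangements, smallest p 0.0625) called 0 of the 7 genes and 0 of all genes for the knockdown and for its difference between lines (KCNQ1OT1 -2.85, exact permutation p = 0.125). Equal list lengths took the KCNQ1OT1 call for the difference between lines (0 of 7, 912 of all genes), gave 1 gained region in K562, and 1 lost and 1 gained region in NB4. In K562 minus NB4 they brought KCNQ1OT1 covered length past 0.05 (1.52, exact permutation p = 0.04) and took the MALAT1 percentile (31.8, exact permutation p = 0.08). Matched depth turned NORAD, K562 WT minus HepG2 WT, to 2.01. Both HepG2 WT libraries and NB4 Control 3 held rescaled reads, so this setting did not match their true depth. GGACU within 50 bases was near 19.7% of the summits of the 7 genes and 18.6% of all. Leaving out 1 library, genes of the 7 called ranged from 0 to 2 (knockdown, covered length), 0 to 3 (difference between lines, covered length, 3 without K562 Control 1), 0 to 1 (the same, percentile) and 0 to 2 (K562 minus NB4, percentile, with MALAT1 called only without K562 Control 1 or NB4 Control 1 and KCNQ1OT1 only without K562 RBFOX2 KD 2 or NB4 RBFOX2 KD 1). Without K562 Control 2, MALAT1 and NORAD were called higher on knockdown by covered length (5.11 and 1.70, exact permutation p = 0.0333). Of all genes, 350 to 900, 401 to 776, 639 to 1807 and 424 to 1004 were called for the knockdown (covered length, percentile) and the difference between lines (covered length, percentile). Lost regions ranged from 0 to 1 in K562, gained regions from 0 to 2 in K562 and from 2 to 4 in NB4 (4 without NB4 Control 3). The K562 minus NB4 covered length of MALAT1 (15.0 to 18.5) and NORAD (2.42 to 3.72) stayed called in all 10 omissions. No other alternative of those listed changed the number of the 7 genes called by more than 1.5 times. Pileups at the ceiling and the unknown background library limit comparisons of peak height.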
